A study of Mus musculus with 2 samples.

Results

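The 3 D-type cyclins Ccnd1, Ccnd2 and Ccnd3 and the inhibitors Cdkn1a and Cdkn1b are described here across the epithelial cells of the late fetal mouse small intestine. These 5 genes were taken by name from the 25663 genes of a deposited single-cell table. The series holds 1 Tet3 knockout library and 1 Control library, each made from a pool of 2 embryos at stage E18.5 and labelled as strain C57BL6/J. In the knockout, exon 5 of Tet3, which codes for a dioxygenase that oxidises 5-methylcytosine, was removed in embryonic stem cells, so the allele is constitutive and not limited to the gut, and the line was backcrossed to C57BL6/JRccHsd. Control embryos carry that label alone and are called wild type in the protocol. Sorted epithelial cells were stored in methanol before droplet capture with a 3′ chemistry that counts unique molecular identifiers (UMIs, 1 per captured transcript).

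D cyclins bind and activate the kinases Cdk4 and Cdk6, which phosphorylate the retinoblastoma protein and so release E2F transcription factors for entry into S phase. Cdkn1a (p21) and Cdkn1b (p27) belong to the Cip/Kip family, which blocks cyclin E and cyclin A kinase complexes and also binds D cyclin complexes. In the intestinal epithelium, division is limited to the progenitor compartment, Ccnd1 and Ccnd2 are known for roles in those progenitors, Cdkn1a is a classic target of p53, and the amount of Cdkn1b protein is controlled largely by degradation, which RNA counts do not show.

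The table holds 11871 cells, each scaled to a total of 10000 (CP10K, counts per 10000). Barcodes ending in -0 (5933 cells) are called set 0 and those ending in -1 are called set 1. No label joins an ending to a genotype, so neither set is called knockout or Control. Tet3 itself averaged 0.333 CP10K in set 0 and 0.218 CP10K in set 1, and since 3′ tags lie away from the deleted exon this assigns no genotype. In set 1, 818 cells carried a barcode also present in set 0, and set 1 is given without them, as 5120 cells. Cells of a set share 1 source, and the sets are not replicates of 1 group, so no test was run between states or sets, and the intervals given cover counting error only. A value called 2-fold is a description of size. Cells held a median of 22382 UMIs, with 1153 in the shallowest cell and 250630 in the deepest.

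States were set from other genes. Cells with Muc2, Fcgbp and Spink4 summing to 50 CP10K or more, all products of goblet cells, were called goblet-marker-high (61 cells). Of the rest, cells with the enterocyte gene Fabp1 below 40 CP10K were divided into cycling cells, with Mki67 and Top2a summing to 2 CP10K or more (783 cells), and non-cycling cells (3256 cells). The non-cycling cells were ordered by the stem cell marker Olfm4, below 1 CP10K (3119 cells), from 1 to 10 CP10K (122 cells) and at or above 10 CP10K (15 cells, 12 of them in set 0). Cells with Fabp1 from 40 to 100 CP10K numbered 1135 and those above 100 CP10K numbered 6636. The 5 epithelial markers Epcam, Cdh1, Krt8, Krt18 and Krt19 were each at 0.2 CP10K or more in every state. Immune, endothelial and tuft cell lists summed to at most 0.128, 0.0336 and 0.0324 CP10K in any state of either set.

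The sequences that are shown come from RefSeq promoter windows of build GRCm38.p6, each from 250 bases before to 50 bases after an annotated start, and 3 of the 5 members had 1 or more windows (Ccnd3, Cdkn1a and Cdkn1b). A Cdkn1a and a Cdkn1b window are printed because both inhibitors are read against lists of regulators. Cdkn1a has another window, at chr17:29093519-29093818, which holds a GC box (GGGGCGGGG) and no spaced p53 letters and is not printed. Capitals mark the matched letters, CATG followed after 6 bases by another CATG (a spaced pair of p53 core letters, chosen after the sequence was seen) in Cdkn1a and CCAAT, or ATTGG on the other strand, in Cdkn1b.
Cdkn1a, chr17:29090729-29091028, plus strand: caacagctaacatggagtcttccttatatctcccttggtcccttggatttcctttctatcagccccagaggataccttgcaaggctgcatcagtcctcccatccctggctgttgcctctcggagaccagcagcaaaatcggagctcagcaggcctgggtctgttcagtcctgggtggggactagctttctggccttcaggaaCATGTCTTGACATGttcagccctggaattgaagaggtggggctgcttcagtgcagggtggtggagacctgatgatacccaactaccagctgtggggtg
Cdkn1b, chr6:134920151-134920450, plus strand: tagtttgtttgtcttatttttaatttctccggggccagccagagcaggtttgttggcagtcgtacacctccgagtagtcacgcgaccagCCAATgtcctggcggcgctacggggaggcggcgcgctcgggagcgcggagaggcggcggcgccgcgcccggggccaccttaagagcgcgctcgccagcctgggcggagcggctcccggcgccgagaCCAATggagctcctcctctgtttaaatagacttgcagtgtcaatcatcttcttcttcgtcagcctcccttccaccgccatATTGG
The spaced p53 letters, searched on both strands, were present in 0.712% of all 32851 windows and the CCAAT letters in 37.4%. A match describes letters in the window and shows no binding.

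All 5 genes were taken with their positions in GRCm38 (GENCODE vM21). Ccnd1 (ENSMUSG00000070348) lies on the minus strand at chr7:144929931-144939925 and Ccnd2 (ENSMUSG00000000184) on the minus strand at chr6:127125162-127152193. Ccnd3 (ENSMUSG00000034165) lies on the plus strand at chr17:47505051-47599691, Cdkn1a (ENSMUSG00000023067) on the plus strand at chr17:29090976-29100727, and Cdkn1b (ENSMUSG00000003031) on the plus strand at chr6:134920401-134925513. Ccnd1 overlaps LTO1 on the opposite strand (0.136 CP10K over all cells) and the 3′ end of Ccnd3 overlaps Bysl on the opposite strand (0.0918 CP10K), and the strand setting of the counting is not stated by the labels, so reads of such pairs may not be told apart. No other gene of the annotation overlaps Cdkn1b.

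The members differed in how widely they were seen. Ccnd3 averaged 1.12 CP10K in set 0 and 1.57 CP10K in set 1, and 10763 of the 11871 cells held a Ccnd3 signal. Cdkn1a averaged 0.565 and 0.608 CP10K in these sets. Ccnd2 averaged 0.582 CP10K in set 0 and 0.766 CP10K in set 1. Ccnd1 averaged 0.109 and 0.162 CP10K, and Cdkn1b averaged 0.0899 and 0.0905 CP10K. Ccnd3 was thus seen in most cells, whereas the median cell held no Ccnd1, Ccnd2 or Cdkn1b UMI. These levels are per captured 3′ tag and are not read as an order of abundance between genes.

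**Figure D1:**
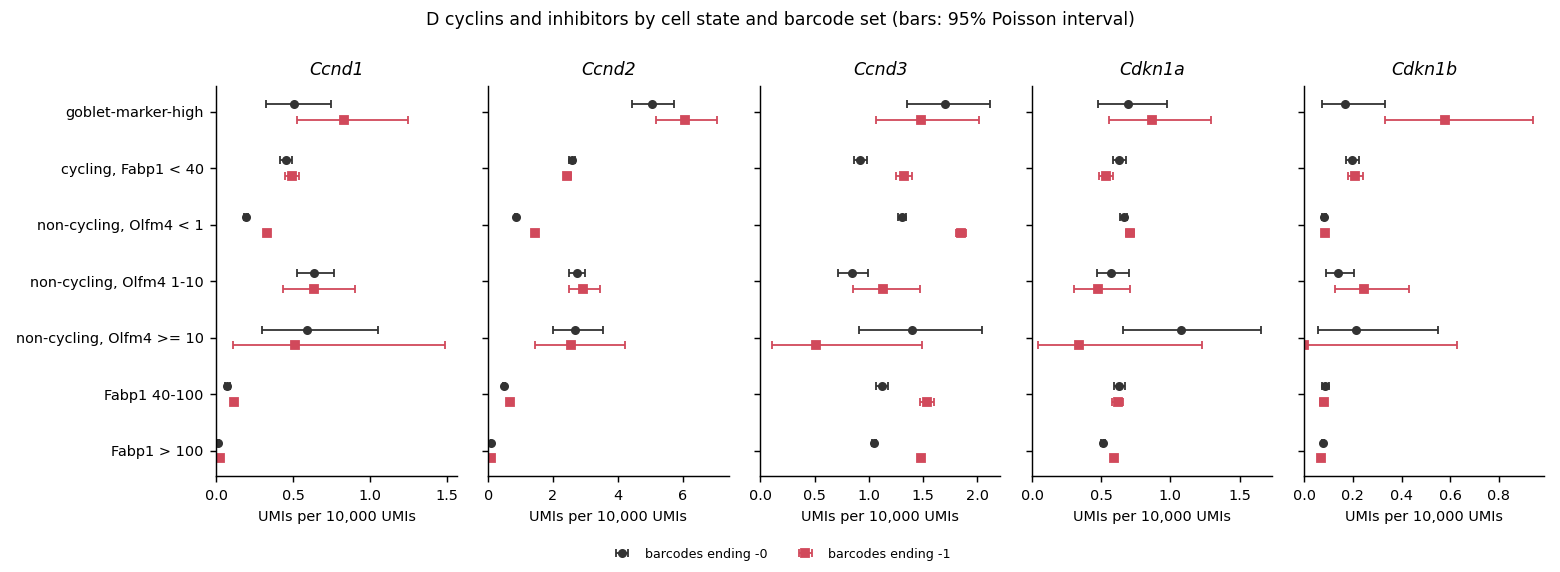
Level of each member as UMIs per 10000 summed UMIs (horizontal axis, linear, a separate scale in each panel) in 7 cell states (vertical axis), with circles for set 0, squares for set 1 and bars for the 95% Poisson interval. Ccnd1 and Ccnd2 are lowest in cells with Fabp1 above 100 CP10K in both sets, and Ccnd2 is highest in goblet-marker-high cells, while Ccnd3 is higher in set 1 in 5 of the 7 states.

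Ccnd1 and Ccnd2 were nearly absent from the most Fabp1-rich enterocytes. Ccnd1 averaged 0.0101 CP10K in set 0 and 0.0205 CP10K in set 1 in cells with Fabp1 above 100 CP10K, against 0.272 and 0.400 CP10K in the same sets in cells with Fabp1 below 40 CP10K. Ccnd2 averaged 0.0620 CP10K in set 0 and 0.0592 CP10K in set 1 in cells with Fabp1 above 100 CP10K, against 1.34 and 1.84 CP10K below 40 CP10K. Both sets showed the same direction, at -3.81 in set 0 and -3.75 in set 1 on the log2 scale for Ccnd1 and -4.23 and -4.74 for Ccnd2. On the log2 scale, with a pseudocount of 0.01 CP10K, the difference over both sets was -3.71 for Ccnd1 and -4.28 for Ccnd2. From summed UMIs the Ccnd1 value was -4.19 (95% interval -4.36 to -4.02), from 301 UMIs in cells above 100 CP10K and 2886 UMIs in cells below 40 CP10K. For Ccnd2 it was -4.19 (-4.27 to -4.11), from 1415 and 13623 UMIs.

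The other members differed less in the same comparison. Ccnd3 averaged 1.25 CP10K in cells with Fabp1 above 100 CP10K and 1.44 CP10K in cells below 40 CP10K, a log2 difference of -0.20. Cdkn1a averaged 0.528 and 0.665 CP10K in these groups, a log2 difference of -0.33. Cdkn1b, at 0.0740 and 0.117 CP10K, was below the minimum of 0.2 CP10K in both groups, with a log2 difference of -0.59. Of the 5650 genes at that minimum, 15.9% differed 2-fold or more in either direction, 4.76% being higher and 11.2% lower, and the 2 members that were 2-fold lower were Ccnd1 and Ccnd2. The median over all 5650 genes was -0.17. The lower level of Ccnd1 and Ccnd2 also stood under every alternative tried, between -4.55 and -1.88 for Ccnd1 and between -5.45 and -3.27 for Ccnd2. Alternatives that moved only the Mki67 and Top2a or the Olfm4 threshold could not change these groups.

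The share of cells with a UMI followed the levels after each cell was thinned to 8000 UMIs, which left out 88 shallower cells. Ccnd2 was seen in 4.05% of cells with Fabp1 above 100 CP10K and in 47.2% of cells below 40 CP10K, and Ccnd1 in 1.13% and 18.8%. Before thinning, median depth was 24223 UMIs above 100 CP10K and 19601 UMIs below 40 CP10K. Free RNA can give UMIs in cells that lack a gene, and how much of the 1.13% for Ccnd1 and 4.05% for Ccnd2 it gives was not tested. Ccnd3 was seen in 61.9% of cells above 100 CP10K and in 65.0% of cells below 40 CP10K. Cdkn1a was seen in 31.4% and 35.3% of these cells, and Cdkn1b in 6.10% and 8.04%.

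A finer division of Fabp1 showed both cyclins decreasing at every step over both sets, with Ccnd1 decreasing at lower Fabp1 than Ccnd2. From below 5 CP10K through 5 to 10, 10 to 20, 20 to 40, 40 to 70, 70 to 100, 100 to 200, 200 to 300 and at or above 300 CP10K of Fabp1, mean Ccnd2 was 1.73, 1.59, 1.33, 0.998, 0.712, 0.369, 0.168, 0.0375 and 0.0164 CP10K. Mean Ccnd1 over the same bins was 0.440, 0.276, 0.204, 0.109, 0.0951, 0.0663, 0.0339, 0.0121 and 0.00254 CP10K. At 20 to 40 CP10K of Fabp1, Ccnd1 stood at 24.7% of its level in the lowest bin and Ccnd2 at 57.5%. Set 1 differed from set 0 at the low end, where Ccnd2 was 1.91 CP10K in the lowest bin and 2.15 CP10K in the next, against 1.63 and 1.34 CP10K in set 0. Ccnd1 in set 0 was 0.0475 CP10K at 40 to 70 and 0.0601 CP10K at 70 to 100 CP10K of Fabp1, its only step up. The highest bin was uneven between sets, with 1552 cells of set 0 and 445 of set 1. Ccnd3 went through 1.56, 1.32, 1.28, 1.33, 1.38, 1.29, 1.36, 1.29 and 1.10 CP10K, and Cdkn1a was 0.676 CP10K in the lowest bin and 0.464 CP10K in the highest. Cdkn1b was 0.120 CP10K in the lowest bin and 0.0668 CP10K in the highest.

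**Figure D2:**
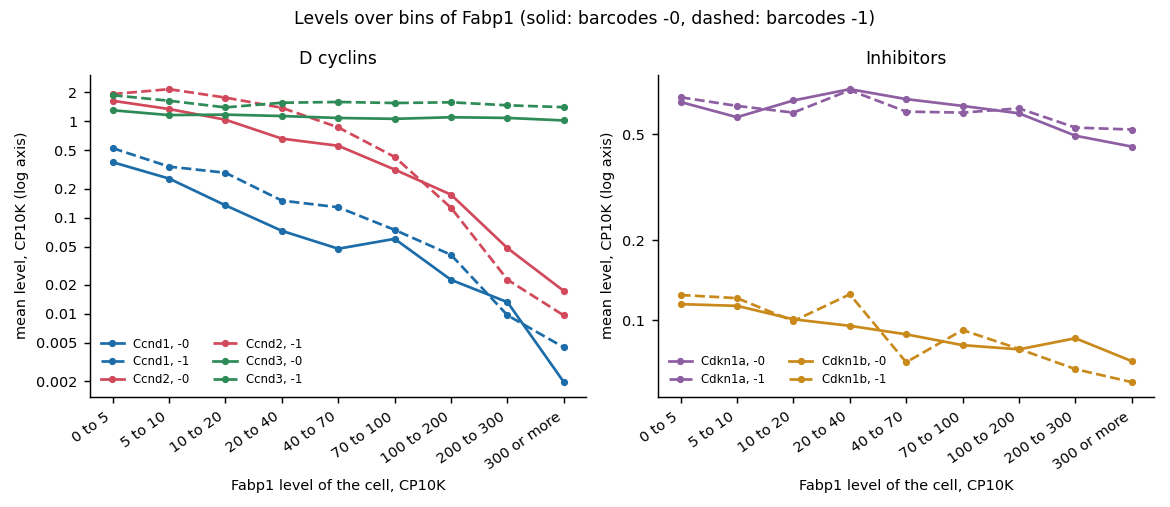
Mean level in CP10K (vertical, log axis) of the 3 D cyclins and the 2 inhibitors over 9 bins of a cell's Fabp1 level (horizontal), with solid lines for set 0 and dashed lines for set 1. Ccnd1 and Ccnd2 decrease over the range of Fabp1, to 0.00254 and 0.0164 CP10K over both sets in the highest bin, while Ccnd3 lies between 1.02 and 1.30 CP10K in set 0 and between 1.39 and 1.86 CP10K in set 1.

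Fabp1 is a gene of the proximal gut, and 44.6% of the non-cycling cells with low Fabp1 held a sum of 150 CP10K or more of the enterocyte genes Apoa1, Apoa4 and Fabp2, against 3.32% of the cycling cells. These cells therefore include enterocytes. Fabp6, a bile acid binding protein of the ileum, averaged 41.5 CP10K in non-cycling cells of set 0 and 1.22 CP10K in those of set 1. Within non-cycling cells with Olfm4 below 1 CP10K, both cyclins also decreased over bins of this sum. From below 30 through 30 to 60, 60 to 100, 100 to 150, 150 to 250 and at or above 250 CP10K, Ccnd2 averaged 3.50, 2.63, 1.66, 1.03, 0.325 and 0.0625 CP10K. Ccnd1 averaged 0.741, 0.475, 0.385, 0.226, 0.111 and 0.0220 CP10K. Both sets showed a decrease at every step for both cyclins. In the bin from 150 to 250 CP10K, Ccnd1 was at 14.9% of its level in the lowest bin and Ccnd2 at 9.28%. In the bin from 30 to 60 CP10K they were at 64.0% and 75.2%, so Ccnd1 was lower there, as at low Fabp1. Over Fabp1 the order also turned, with Ccnd1 at 2.76% and Ccnd2 at 2.16% in the bin from 200 to 300 CP10K. In the highest Fabp1 bin they were at 0.577% and 0.944%. Which cyclin stood lower thus depended on the bin along both scales.

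Ccnd3 did not follow this decrease. It averaged 1.40, 1.38, 1.42, 1.59, 1.71 and 1.57 CP10K over the bins. Cdkn1a was 0.743 CP10K in the lowest bin and 0.797 CP10K in the highest, with a minimum of 0.553 CP10K between 30 and 60 CP10K. Cdkn1b was 0.149 CP10K in the lowest bin and between 0.0747 and 0.0879 CP10K in the other 5. For non-cycling cells at or above 150 CP10K of the sum over those below 60 CP10K, the log2 difference from summed UMIs was -3.17 (95% interval -3.38 to -2.96) for Ccnd1, -3.90 (-4.01 to -3.78) for Ccnd2, 0.32 (0.24 to 0.39) for Ccnd3, 0.33 (0.22 to 0.43) for Cdkn1a and -0.54 (-0.81 to -0.27) for Cdkn1b. Ccnd1 and Ccnd2 thus differed in the opposite direction to Ccnd3 and Cdkn1a, in both sets.

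**Figure D3:**
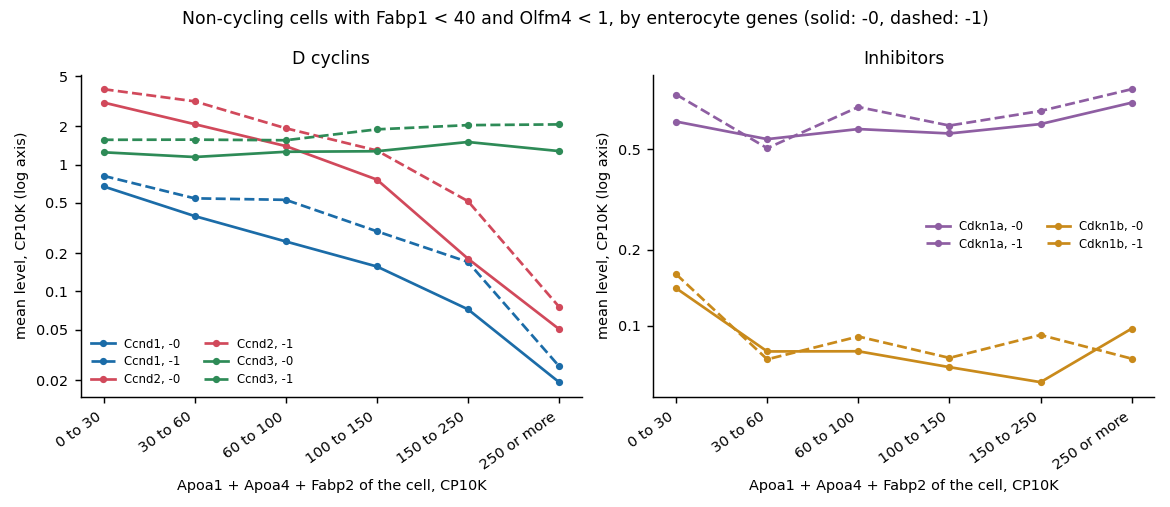
Mean level in CP10K (vertical, log axis) over 6 bins of the summed Apoa1, Apoa4 and Fabp2 level (horizontal) in non-cycling cells with Fabp1 below 40 CP10K and Olfm4 below 1 CP10K, with solid lines for set 0 and dashed lines for set 1. Ccnd2 decreases to 0.0625 CP10K over both sets in the highest bin and Ccnd1 to 0.0220 CP10K, while Ccnd3 and Cdkn1a show no such decrease.

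Cycling cells held more Ccnd1, Ccnd2 and Cdkn1b and less Ccnd3 than non-cycling cells with low Fabp1. Ccnd2 averaged 2.68 CP10K in set 0 and 2.58 CP10K in set 1 in cycling cells, against 1.03 and 1.66 CP10K in non-cycling cells of the same sets. Ccnd1 averaged 0.483 and 0.535 CP10K in cycling cells, against 0.222 and 0.367 CP10K in non-cycling cells. The size of both differences was larger in set 0, at log2 values of 1.37 for Ccnd2 and 1.09 for Ccnd1, than in set 1, at 0.63 and 0.53, and this gap between sets was not tested. Cdkn1b averaged 0.198 CP10K in set 0 and 0.232 CP10K in set 1 in cycling cells, against 0.0895 and 0.0936 CP10K in non-cycling cells. Ccnd3 averaged 0.943 and 1.32 CP10K in cycling cells, against 1.29 and 1.80 CP10K in non-cycling cells. Cdkn1a averaged 0.651 and 0.546 CP10K in cycling cells, against 0.652 and 0.707 CP10K in non-cycling cells.

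Over both sets the log2 differences were 0.83 for Ccnd1, 1.01 for Ccnd2, -0.44 for Ccnd3, -0.15 for Cdkn1a and 1.17 for Cdkn1b. Summed UMIs gave 1.11 (95% interval 1.06 to 1.16) for Ccnd2 and 1.24 (1.06 to 1.42) for Cdkn1b, from 421 Cdkn1b UMIs in cycling and 634 in non-cycling cells. Ccnd2 and Cdkn1b were thus the 2 members that were 2-fold or more higher, beside 8.27% of 5892 genes in that direction. Of the 5892 genes, 10.1% were lower and 18.4% differed in either direction. Cdkn1b reached the minimum of 0.2 CP10K in cycling cells only, at 0.220 CP10K over both sets. Cycling cells of set 1 also held mesenchymal markers at a sum of 2.15 CP10K, led by Col3a1 at 0.651 CP10K, with 4 of 7 at the minimum, against 0.313 CP10K in non-cycling cells of set 1 with Olfm4 below 1 CP10K. In set 0 these sums were 0.120 and 0.0820 CP10K, with 0 of 7 at the minimum in cycling cells. The log2 differences in set 0 were 1.37 for Ccnd2 and 1.07 for Cdkn1b. In set 1 they were 0.63 and 1.22, and the part of the mesenchymal markers in them was not tested.

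Restricted to cells with the enterocyte sum below 60 CP10K, Ccnd1 and Ccnd2 were no longer higher in cycling cells over both sets, while Cdkn1b was. Ccnd2 averaged 2.78 CP10K in 636 cycling cells and 3.00 CP10K in 891 non-cycling cells, a log2 difference of -0.11, with 0.11 in set 0 and -0.33 in set 1. Ccnd1 averaged 0.555 and 0.607 CP10K in these groups, a log2 difference of -0.13. Cdkn1b averaged 0.224 CP10K in cycling cells and 0.118 CP10K in non-cycling cells, a log2 difference of 0.87, and was higher in cycling cells in both sets (0.76 in set 0 and 0.91 in set 1). Ccnd3 averaged 1.07 and 1.33 CP10K. Neither of the members that were 2-fold higher in the wider comparison was 2-fold higher here.

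Cdkn1b increased with each step of the proliferation genes. From 0 through above 0 to 2, 2 to 5, 5 to 10 and at or above 10 CP10K of Mki67 plus Top2a in cells with Fabp1 below 40 CP10K, Cdkn1b averaged 0.0864, 0.112, 0.182, 0.226 and 0.382 CP10K. In set 0 the values were 0.0868, 0.0997, 0.165, 0.212 and 0.313 CP10K, and in set 1 they were 0.0851, 0.123, 0.198, 0.224 and 0.406 CP10K. The share of thinned cells with a Cdkn1b UMI went through 6.38%, 7.33%, 12.1%, 13.8% and 24.4%, so the order was kept at equal depth. From summed UMIs, the highest over the lowest bin was 2.07 on the log2 scale (95% interval 1.67 to 2.46), from 85 and 2555 cells. Ccnd2 had its step between the lowest 2 bins, with 1.02, 2.25, 2.59, 2.55 and 2.77 CP10K. Ccnd1 showed the same step, with 0.234, 0.447, 0.547, 0.452 and 0.479 CP10K, and Cdkn1a lay between 0.547 and 0.714 CP10K with no order.

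**Figure D4:**
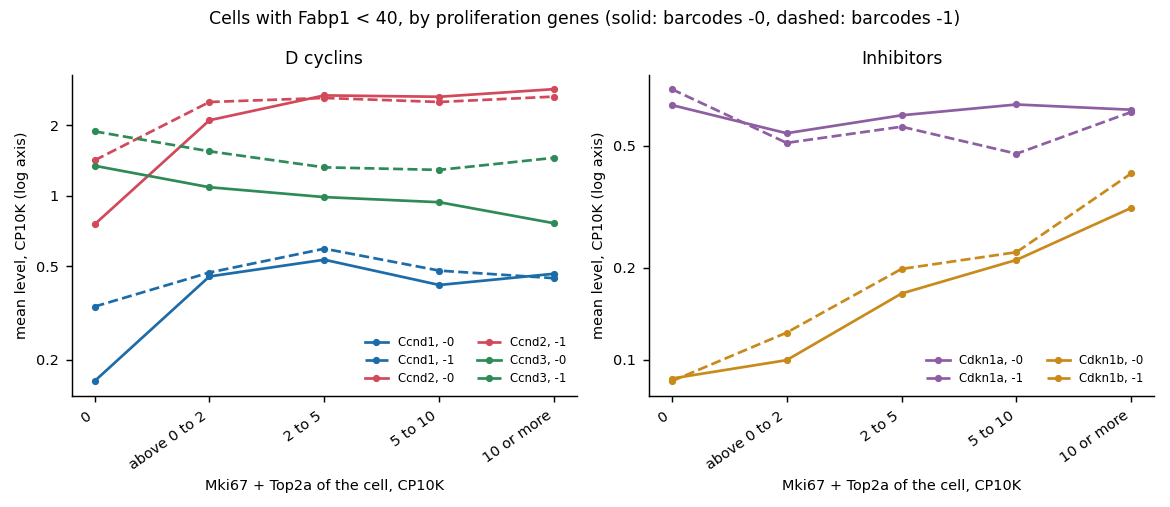
Mean level in CP10K (vertical, log axis) over 5 bins of summed Mki67 and Top2a (horizontal) in cells with Fabp1 below 40 CP10K, with solid lines for set 0 and dashed lines for set 1. Cdkn1b is higher in each successive bin in both sets, from 0.0864 CP10K over both sets at 0 to 0.382 CP10K at 10 CP10K or more.

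Within the cycling cells, those at or above the median of 7 G2/M genes (392 cells, among them Ccnb1, Cdc20 and Plk1) held less Ccnd1 and more Cdkn1b than those below it (391 cells). Ccnd1 averaged 0.382 CP10K in both sets in G2/M-high cells, against 0.564 CP10K in set 0 and 0.742 CP10K in set 1 in G2/M-low cells. The log2 difference from summed UMIs was -0.65 (95% interval -0.84 to -0.47). Cdkn1b averaged 0.250 CP10K in G2/M-high and 0.189 CP10K in G2/M-low cells (0.45, 0.17 to 0.75). By set, Cdkn1b gave 0.40 (-0.0023 to 0.80) in set 0 and 0.58 (0.12 to 1.05) in set 1. Cdkn1a averaged 0.500 and 0.717 CP10K in these groups, a difference that lay mainly in set 0, with 0.483 and 0.785 CP10K, and was small in set 1, with 0.520 and 0.581 CP10K. Ccnd2 at 2.42 and 2.77 CP10K and Ccnd3 at 1.06 and 1.17 CP10K differed by less over both sets. The Ccnd2 difference lay in set 1, with 2.30 and 2.96 CP10K, against 2.66 and 2.70 CP10K in set 0. Median depth was 25883 UMIs in G2/M-high and 20708 UMIs in G2/M-low cells.

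The few cells with mitotic genes among Fabp1-rich cells also held D cyclins. Among cells with Fabp1 above 100 CP10K, the 65 with Mki67 and Top2a at 2 CP10K or more averaged 0.952 CP10K of Ccnd2 and 0.136 CP10K of Ccnd1, against 0.0607 and 0.0143 CP10K in the other 6571 cells, at median depths of 36316 and 24210 UMIs. Ccnd2 was 0.921 CP10K in set 0 and 0.906 CP10K in set 1 in the cycling ones, against 0.0542 and 0.0534 CP10K in the others. Droplets holding a pair of cells also have more UMIs, and their part in this result was not tested. Ccnd3 at 1.30 and 1.25 CP10K was close in both groups.

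Cells with more of the stem cell marker Olfm4 held Ccnd1 and Ccnd2 levels near those of cycling cells. Ccnd2 averaged 1.22 CP10K below 1 CP10K of Olfm4, 2.74 CP10K from 1 to 10 CP10K and 2.72 CP10K at or above 10 CP10K. Ccnd1 averaged 0.265, 0.630 and 0.615 CP10K, and Cdkn1b averaged 0.0881, 0.174 and 0.203 CP10K over the same steps. For the highest against the lowest step, log2 values were 1.18 for Ccnd1, 1.15 for Ccnd2 and 1.12 for Cdkn1b. These 3 members were 2-fold higher, beside 14.1% of 6120 genes that were higher, 21.7% that were lower and 35.8% in either direction. Summed UMIs without a pseudocount gave 1.19 (95% interval 0.32 to 1.94) for Ccnd1, from 14 UMIs in the top step. They gave 1.27 (0.89 to 1.62) for Ccnd2, from 65 UMIs, and 0.97 (-0.91 to 2.34) for Cdkn1b, from 4 UMIs. Cdkn1b reached the minimum of 0.2 CP10K only in the top step, at 0.203 CP10K. The top step held 15 cells, and the count of 3 rests on the 12 cells of set 0, where log2 values were 1.65, 1.54 and 1.46. In the 3 cells of set 1 none of the members was 2-fold higher, with 0.56 for Ccnd1, 0.79 for Ccnd2 and no Cdkn1b UMI. Proliferation markers moved with Olfm4, with a sum of 20.4 CP10K in the top step and 6.21 CP10K in the lowest, and 9 and 7 of 12 at the minimum. Fos, at 3.12 and 0.731 CP10K in these steps, did so too, and their part in these values was not tested. With the enterocyte sum below 60 CP10K, Ccnd2 was 2.77 CP10K in 125 cells with Olfm4 at 1 CP10K or more and 3.04 CP10K in 766 cells below it. In that restricted comparison Ccnd3 was lower in the Olfm4 cells, with 0.941 CP10K against 1.39 CP10K (log2 from summed UMIs -0.58, 95% interval -0.79 to -0.37), in both sets.

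Goblet-marker-high cells held the highest Ccnd2 of all states. Ccnd2 averaged 7.20 CP10K in 36 cells of set 0 and 6.91 CP10K in 24 cells of set 1, against 0.542 and 0.737 CP10K in the rest of the same sets. Among the 61 cells of both sets, the quartiles of Ccnd2 were 2.16, 6.61 and 9.33 CP10K and the highest cell held 30.5 CP10K. After thinning, 36 of 40 goblet-marker-high cells, or 90.0% (95% Clopper-Pearson interval 76.3% to 97.2%), held a Ccnd2 UMI. Ccnd1 averaged 0.705 CP10K in set 0 and 0.671 CP10K in set 1, against 0.105 and 0.160 CP10K in the rest. Cdkn1b averaged 0.220 and 0.620 CP10K, from 8 and 16 UMIs, against 0.0891 and 0.0880 CP10K in the rest.

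The log2 difference over the rest was 3.48 for Ccnd2, 2.33 for Ccnd1 and 1.95 for Cdkn1b. Those 3 members were 2-fold or more higher, beside 19.8% of 6461 genes in that direction, 13.7% that were lower and 33.5% in either direction. Ccnd1 and Cdkn1b reached the minimum of 0.2 CP10K in goblet-marker-high cells only. Ccnd3 at 1.69 and 1.32 CP10K and Cdkn1a at 0.767 and 0.584 CP10K gave 0.35 and 0.39. The rest are mostly enterocytes, so non-cycling cells of low enterocyte sum were also set beside the 44 non-cycling goblet-marker-high cells. Ccnd2 was 6.80 CP10K in these goblet-marker-high cells and 3.00 CP10K in the low-sum cells, a log2 difference from summed UMIs of 0.76 (95% interval 0.58 to 0.94), and higher in both sets. Ccnd1, at 0.761 and 0.607 CP10K, gave -0.01 from summed UMIs (-0.56 to 0.50). Means over cells weight shallow cells as much as deep ones, and the corresponding values from means were 1.18 for Ccnd2 and 0.32 for Ccnd1. Median depth was 9650 UMIs in the goblet-marker-high and 17153 UMIs in the low-sum cells.

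Ccnd2 was high in goblet-marker-high cells with and without the proliferation genes. It averaged 7.53 CP10K in the 17 that were cycling and 6.80 CP10K in the 44 that were not. From a marker sum of 20 CP10K up, Ccnd2 was higher with more goblet markers. It was at 2.33 CP10K for a sum of 20 to 50 CP10K, 4.77 CP10K for 50 to 100 CP10K and 9.16 CP10K at or above 100 CP10K. The part of enterocyte content in this order was not tested. Goblet-marker-high cells also held the early response genes Fos at 2.84 CP10K and Egr1 at 3.25 CP10K, against 0.768 and 0.640 CP10K in the rest, and the Paneth cell defensin Defa24 at 27.2 CP10K, against 0.0678 CP10K. Their median depth of 10218 UMIs was below that of each other state, and the part of these differences in the Ccnd2 value was not tested.

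**Figure D5:**
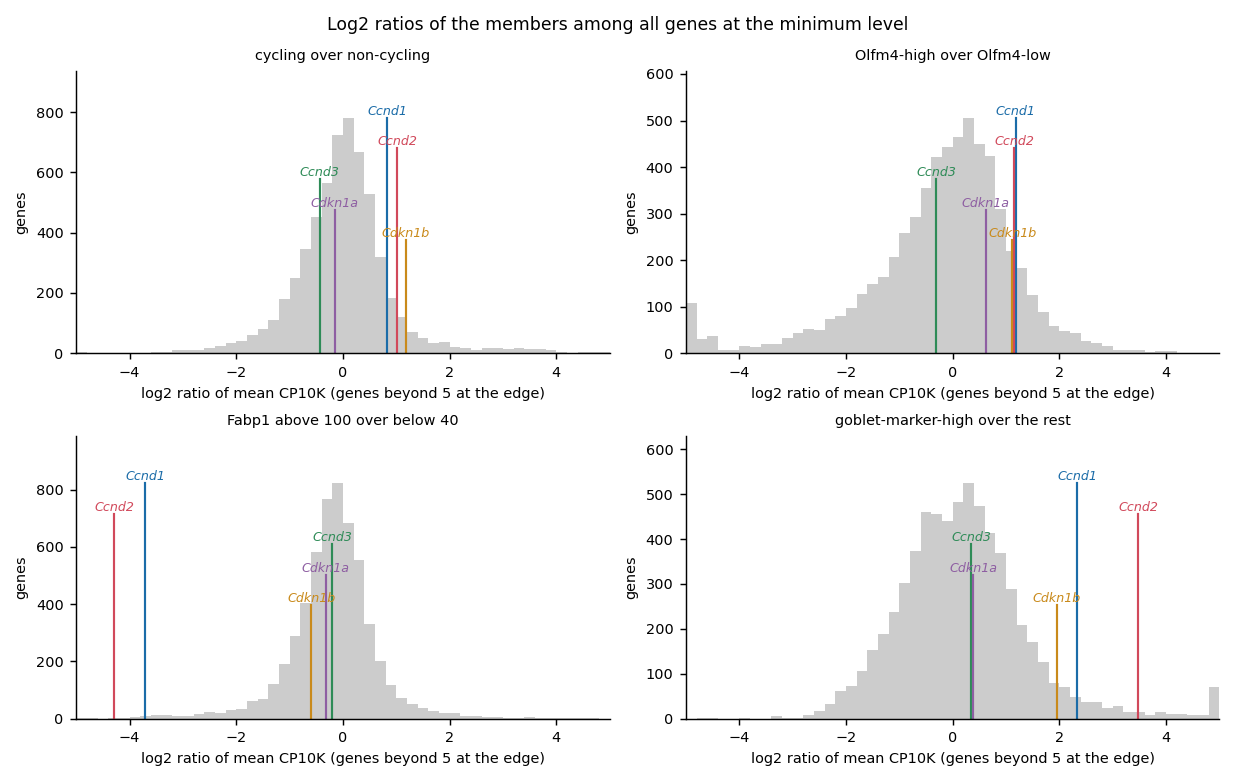
Number of genes (vertical) by log2 ratio of mean CP10K (horizontal) in 4 comparisons, over the genes with a mean of 0.2 CP10K or more in 1 or both groups, with coloured lines for the 5 members (Cdkn1b is below that minimum in the Fabp1 panel). Ccnd1 and Ccnd2 lie at -3.71 and -4.28 for Fabp1 above 100 over below 40 CP10K, and at 2.33 and 3.48 for goblet-marker-high cells over the rest.

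The 26 cells with Chga and Chgb, the granins of enteroendocrine cells, summing to 20 CP10K or more held more of both inhibitors. Cdkn1a averaged 1.55 CP10K in 14 cells of set 0 and 1.37 CP10K in 11 cells of set 1, against 0.563 and 0.606 CP10K in the other cells of those sets. The log2 difference from summed UMIs was 1.06 (95% interval 0.55 to 1.53) over both sets and 0.58 (-0.48 to 1.46) in set 1 alone. Cdkn1b averaged 0.230 CP10K in set 0 and 0.799 CP10K in set 1, against 0.0896 and 0.0890 CP10K in the other cells, from 10 UMIs in all. Ccnd2, at 0.657 CP10K against 0.650 CP10K over both sets, differed in opposite directions by set. It was 0.435 against 0.583 CP10K in set 0 and 1.00 against 0.765 CP10K in set 1. From summed UMIs the log2 differences were -0.34 (-1.66 to 0.70) in set 0 and 1.18 (0.37 to 1.88) in set 1. Median depth of the 26 cells was 7946 UMIs, against 22394 UMIs in the other cells, and its part in these values was not tested.

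Among enterocytes with Fabp1 above 100 CP10K, Cdkn1a was higher with more Fabp6. It averaged 0.496 CP10K with Fabp6 below 2 CP10K, 0.586 CP10K from 2 to 20 CP10K and 0.643 CP10K at or above 20 CP10K. In set 0 these values were 0.469, 0.517 and 0.572 CP10K, and in set 1 they were 0.524, 0.703 and 1.05 CP10K, the last from 102 cells. Ccnd3 had opposite orders in the sets, with 1.04, 1.08 and 1.09 CP10K in set 0 and 1.50, 1.44 and 1.35 CP10K in set 1. Cdkn1b averaged 0.0726, 0.0795 and 0.0764 CP10K, with no order.

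Ordered by UMIs per 10000 summed UMIs, the states gave each member its own sequence. Ccnd2 was highest in goblet-marker-high cells at 5.39 (95% Poisson interval 4.88 to 5.94), followed by non-cycling cells with Olfm4 from 1 to 10 CP10K at 2.72, those at or above 10 CP10K at 2.65 and cycling cells at 2.50, 3 states whose neighbouring intervals overlapped. Below them came non-cycling cells with Olfm4 below 1 CP10K at 1.10, Fabp1 from 40 to 100 CP10K at 0.578 and Fabp1 above 100 CP10K at 0.0793, each apart from its neighbour. For Ccnd1 the top 4 states lay between 0.467 and 0.621 with overlapping neighbours, and the lower 3 stood apart at 0.250, 0.0934 and 0.0169. Within the top 4, cells with Olfm4 from 1 to 10 CP10K (0.523 to 0.731) did not overlap cycling cells (0.438 to 0.497). Ccnd3 covered only 0.909 to 1.61, with cycling cells and cells with Olfm4 from 1 to 10 CP10K at the low end. Cdkn1a covered 0.544 to 0.897, and Cdkn1b covered 0.0744 to 0.315 with every neighbouring pair overlapping. The Cdkn1b neighbours overlapped through the top Olfm4 step, which has 4 UMIs and the wide interval 0.0445 to 0.418. Cycling cells (0.186 to 0.225) and cells with Olfm4 from 1 to 10 CP10K (0.127 to 0.240) did not overlap cells with Olfm4 below 1 CP10K (0.0767 to 0.0902). Nor did they overlap the Fabp1 states, at 0.0730 to 0.0938 and 0.0705 to 0.0785.

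Ccnd3 differed between the sets, and so did Ccnd1 and Ccnd2. Ccnd3 was higher in set 1 than in set 0 in 5 of the 7 states. It was at 1.32 against 0.943 CP10K in cycling cells and 1.49 against 1.06 CP10K in cells with Fabp1 above 100 CP10K. The exceptions were goblet-marker-high cells, at 1.52 CP10K in set 1 and 1.82 CP10K in set 0, and the top Olfm4 step with its 3 cells of set 1. In non-cycling cells with Olfm4 below 1 CP10K, set 1 against set 0 was 0.361 and 0.195 CP10K for Ccnd1. In those cells it was 1.63 and 0.921 CP10K for Ccnd2 and 1.82 and 1.31 CP10K for Ccnd3. Ccnd1 and Ccnd2 were lower in set 1 in goblet-marker-high cells, Ccnd1 also in the top Olfm4 step, and Ccnd2 also in cycling cells and with Fabp1 above 100 CP10K. The share of all genes that differ between sets is not given here. Library, embryo pool and genotype cannot be told apart between sets.

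Members were also counted together in thinned cells. In cycling cells 82.8% held a Ccnd1 or Ccnd2 UMI, 9.27% held Ccnd3 without either and 7.98% held no D cyclin UMI. In cells with Fabp1 above 100 CP10K these shares were 4.96%, 58.7% and 36.3%. All 3 D cyclins were seen in 14.7% of cycling cells and in 0.166% of cells with Fabp1 above 100 CP10K. A D cyclin and an inhibitor were seen together in 39.9% of cycling cells and in 22.8% of cells with Fabp1 above 100 CP10K. Among cycling cells, Cdkn1b was seen in 9.68% of the 248 cells with a Cdkn1a UMI and in 16.1% of the 529 without one. The order was the other way in non-cycling cells with Olfm4 below 1 CP10K, at 6.74% with and 6.25% without. It was also the other way with Fabp1 from 40 to 100 CP10K, at 9.02% and 4.93%, and above 100 CP10K, at 6.49% and 5.93%. Ccnd2 was seen in 87.7% of the 236 cycling cells with Ccnd1 and in 75.2% of the 541 without it.

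The kinase partners and targets of D cyclins were mostly too low to compare. Of 13 listed genes, 4 reached the minimum in the cycling comparison and 0 of them were 2-fold higher or lower, beside 18.4% of all genes in either direction, with a median log2 difference of 0.57 against 0.00 over all genes at the minimum. Cdk4, a D cyclin kinase, averaged 4.37 CP10K in cycling and 2.99 CP10K in non-cycling cells, and 1.94 CP10K in cells with Fabp1 above 100 CP10K against 3.26 CP10K below 40 CP10K. Cdk6 averaged 0.106 CP10K in cycling cells. Of 19 other cyclins and kinases, 15 reached the minimum and 6 were 2-fold higher in cycling cells, beside 8.27% of all genes, among them the mitotic kinase Cdk1 at 2.08 against 0.155 CP10K and the S-phase cyclin Ccne1 at 0.431 against 0.0849 CP10K. The other 4 were Ccna2, Ccnb1, Ccnb2 and Ccnf, and several of these genes are themselves markers of division.

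The list of other inhibitors held few genes to compare. Of 6 listed, 4 reached the minimum in the cycling comparison, with 2 that were 2-fold higher, Cdkn2d at 0.247 against 0.0958 CP10K and Cdkn3 at 0.918 against 0.268 CP10K, and 1 lower, beside 8.27% of all genes that were higher and 10.1% that were lower. The lower one was Cdkn1c (p57), the third Cip/Kip gene, at 3.87 CP10K in cycling and 21.7 CP10K in non-cycling cells, a log2 difference of -2.48. It averaged 27.9 CP10K in cells with Fabp1 above 100 CP10K, against 18.3 CP10K below 40 CP10K. In goblet-marker-high cells it was lower than in the rest, which are mostly enterocytes, with 6.11 CP10K against 23.6 CP10K. It was lower still in cycling cells, and at 2.09 and 0.392 CP10K in non-cycling cells with Olfm4 from 1 to 10 and at or above 10 CP10K. Cdkn1c and Cdkn1b, members of 1 protein family, thus differed in opposite directions in the cycling and the goblet-marker comparisons. The reference groups of both comparisons hold enterocytes, and Cdkn1c is not given here at a low enterocyte sum.

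Of 16 listed genes for the turnover of these proteins, 15 were in the table, 11 reached the minimum and 3 were 2-fold higher in cycling cells, beside 8.27% of all genes. They were Cks1b at 1.52 against 0.238 CP10K, Cdc20 at 1.44 against 0.204 CP10K, and Skp2, the F-box protein that targets Cdkn1b for degradation together with Cks1b, at 0.216 against 0.0878 CP10K. Of 19 p53 targets, 7 reached the minimum, Btg2 was 2-fold higher and Gadd45a and Perp were 2-fold lower in cycling cells, beside 8.27% and 10.1% of all genes in those directions, with a median of -0.47 against 0.00 over all genes. Cdkn1a, whose window above holds the spaced p53 letters, differed by -0.15. Mdm2, another p53 target, averaged 0.207 CP10K in cells with Fabp1 above 100 CP10K and 0.181 CP10K below 40 CP10K.

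Of 25 listed upstream regulators, 15 reached the minimum in the goblet-marker comparison and 5 were 2-fold higher, beside 19.8% of all genes, with a median of 0.54 against 0.13 over all genes. The 5 were Sox9 at 0.901 against 0.0572 CP10K, Klf4, a goblet cell factor, at 2.62 against 0.272 CP10K, Egr1, Fos and the Wnt effector Tcf7l2 at 0.375 against 0.108 CP10K. In the cycling comparison 1 of 15 was 2-fold higher, near the 8.27% of all genes, Sox9 at 0.289 against 0.0929 CP10K. In the other direction 2 were lower, near the 10.1% of all genes, Klf4 at 0.146 against 0.302 CP10K and Stat3 at 0.0612 against 0.261 CP10K.

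Over the 14 combinations of state and set, the genes whose log2 level was most like that of Ccnd1 were Mettl1 (Pearson r = 0.979), Hnrnpa3, Rcc2, Gars and Srsf1, among 5053 genes with a mean of 0.2 CP10K or more. Those most like Ccnd2 were Cldn3 (0.978), Mettl1, Hnrnpa3, Ptbp1 and Tpr, and Ccnd1 and Ccnd2 had 0.971 with each other. Ccnd3 was nearest to Larp4 (0.916), with -0.02 to Ccnd2. Cdkn1a was nearest to Ecpas (0.925) and Cdkn1b to Senp6 (0.957). These values are descriptions, since the 14 points share libraries and depth. Without the top Olfm4 step, which rests on 15 cells, Ccnd1 and Ccnd2 had 0.972 with each other, but the nearest genes became Pum3 (0.986) for Ccnd1, Stard4 (0.873) for Ccnd3, Cmas (0.944) for Cdkn1a and Arid4a (0.964) for Cdkn1b. The value between Ccnd1 and Cdkn1b was 0.732 without that step and 0.328 with it.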

How the data were processed

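Single-cell RNA was measured in 1 Tet3 knockout and 1 Control library. The deposited table holds a linear signal per cell and gene that the authors scaled to 10000 per cell; the submitters' processing notes name Salmon 0.14.1 with alevin, Scanpy 1.6.0 and builds GRCm38 and mm10. UMIs were recovered as multiples of each cell's most frequent non-zero value, which made 94.9% of values whole within 0.01 in the median cell and 84.3% in the lowest. The members and gene lists were chosen with earlier results of these data known, and the bins of Fabp1, enterocyte sum, proliferation genes, goblet markers, granins and Fabp6 after the data were seen. Named genes were the 5 members, the genes of 6 listed groups and the 5 genes most like each member. Levels are means of CP10K over cells. Ratios used a pseudocount of 0.01 CP10K and a 2-fold size over genes with a mean of 0.2 CP10K or more in 1 or both groups. Intervals are exact Poisson or Clopper-Pearson at 95% and cover counting error only, and shares used cells thinned to 8000 UMIs. No doublet caller was run; leaving out the 5% of cells with most UMIs was 1 alternative. The ratio code was checked on simulated data. Python 3.11.15, numpy 2.4.6, scipy 1.17.1 and pandas 2.3.3 were used.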

Additional observations from a re-analysis of the deposited data

How the results depend on the processing

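Over the 4 comparisons and the alternatives tried, 355 values of a member under a setting were computed. Of these, 293 kept their direction and side of 2-fold, or moved by less than their interval. The 293 include values that could not move, because the setting changed a threshold that the comparison does not use. The Olfm4 threshold does not enter the cycling comparison, and neither it nor the Mki67 and Top2a threshold enters the Fabp1 comparison. The counts of members in this section took the 2-fold size alone, without the minimum of 0.2 CP10K. The goblet-marker count of 3 was the same in every alternative run for it, but the Mki67 and Top2a, Olfm4 and Fabp1 thresholds do not enter it. The Fabp1 count of 2 was also the same, except with the enterocyte sum below 60 CP10K in cells below 40 CP10K, where Cdkn1b made it 3. The cycling count of 2 became 1 with a stricter cell filter, without the shared barcodes of set 1 and in set 1 only. It was also 1 with Mki67 and Top2a above 0 or at 5 CP10K or more. Goblet markers at 20 CP10K or more, or Fabp1 thresholds of 20 and 200 CP10K, gave 1 as well. A pseudocount of 0.1 CP10K, or the enterocyte sum below 60 CP10K, made it 0. In set 0 only it was 3, with Ccnd1 at 1.09, Ccnd2 at 1.37 and Cdkn1b at 1.07. Of these, Cdkn1b was below the minimum in both groups of set 0. The Olfm4 count of 3 became 1 with Mki67 and Top2a at 5 CP10K or more or a pseudocount of 0.1 CP10K, and 0 with the enterocyte sum below 60 CP10K. It was 2, without Cdkn1b, with summed UMIs (0.89 for Cdkn1b), after thinning (0.95) and with Olfm4 at or above 5 (0.74), 20 (0.44) or 1 CP10K (0.93). In set 1 only it was also 2, but both, Ccnd3 and Cdkn1b, were lower and 0 were higher. Cdkn1b was below the minimum in both groups there, and with the minimum 1 member was 2-fold lower. With the enterocyte sum below 60 CP10K, chosen after seeing the data, the direction of Ccnd2 turned to -0.11 in the cycling and -0.16 in the Olfm4 comparison. Cdkn1b turned to -3.35 in the Olfm4 comparison in set 1 only, which rests on 3 cells with 0 UMIs. For the other turns the cause was not tested. With no minimum level, 8.34% of genes were 2-fold apart in the cycling, 8.2% in the Fabp1, 27.6% in the Olfm4 and 22.4% in the goblet-marker comparison. Depth limits the values that rest on few UMIs, among them the 4 of Cdkn1b in the top Olfm4 step and its 24 in goblet-marker-high cells. No paired analysis was possible because the groups share fewer than 2 replicate numbers and no barcode set is tied to a sample.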
